A study of Mus musculus with 36 samples.

Results

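The genes described here are 9 genes known from tendon, joint surface and cartilage, Scx, Tnmd, Mkx, Fmod, Prg4, Cilp, Sox9, Chad and Matn1, out of 52636 genes in a count table from sorted cells of mouse skeletal muscle. They were picked by name with their levels in these libraries already known. Their differences between cell types are therefore given as a description, as fold changes with standard errors (SE), and without a test. RNA-seq was done on cells of the double transgenic S100β-GFP;NG2-dsRed line, in which the S100b promoter drives GFP and the promoter of Cspg4, the gene of NG2, drives dsRed, and all groups came from animals with both transgenes. FACS on the fluorescence gave S100β-GFP+;NG2-dsRed+ cells, which are called perisynaptic Schwann cells (PSCs), S100β-GFP+ cells and NG2-dsRed+ cells, labelled NG2DsRed+/S100GFP+, S100GFP+ and NG2DsRed+ by the submitters. Each library held the RNA of sorted cells of 1 untreated juvenile animal, taken from diaphragm, pectoralis, forelimb and hindlimb muscle. The labels give the age as P15 with an end day between P21 and P46 that grows with the library number, whereas the study's methods name a window of P15 to P21, so the end days in the labels are uncertain. The 27 libraries in the table, of 36 labelled, were 9 of PSCs, 8 of S100β-GFP+ and 10 of NG2-dsRed+ cells, and they keep the labels' numbers here. The study kept fewer S100β-GFP+ libraries than the table holds and does not name the one left out, so it may be among these 8.

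Scx and Mkx encode transcription factors of the tendon lineage, and Tnmd encodes tenomodulin, a membrane protein of mature tendon cells. Fmod (fibromodulin) and Chad (chondroadherin) encode proteins with leucine-rich repeats that bind collagen, Chad being best known from cartilage. Prg4 encodes lubricin, the lubricant of joint and tendon surfaces, and Cilp a matrix protein of cartilage, tendon and ligament. Sox9 encodes the transcription factor that chondrocytes need, which is also used in other lineages, and Matn1 encodes matrilin-1, a cartilage matrix protein. In muscle these genes are known from tendon, fascia and the connective tissue around muscle and nerve.

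In GENCODE M21 (GRCm38) Scx lies on chromosome 15, Tnmd on the X chromosome, Fmod and Prg4 on chromosome 1, Cilp on chromosome 9, Sox9 and Chad on chromosome 11 and Matn1 on chromosome 4. Scx, at 76457452 to 76459458, lies within the span of Bop1 on the opposite strand without sharing an exon base. Chad, at 94565047 to 94569127, likewise shares only a span with Acsf2. Exons of Prg4, at 150449412 to 150466165, overlap exons of Tpr on the other strand. Whether counting used strand is not stated in these sources, and without strand Prg4 reads cannot be told from reads of Tpr there. The sequence before the transcription start was at hand for 5 of the 9 genes (RefSeq, GRCm38.p6), and 4 of them are printed because their genes stand for the patterns described next. Fmod and Chad moved together over libraries, Cilp followed the other pattern, and Matn1 was found in almost a single library. The 250 bases before the start are given 5′ to 3′ on the plus strand, with matches to CANNTG in capitals, the E-box that factors such as the product of Scx bind. They lie at chr1:134037004-134037253 for Fmod, chr11:94564797-94565046 for Chad, chr9:65264930-65265179 for Cilp and chr4:130944135-130944384 for Matn1.
Fmod: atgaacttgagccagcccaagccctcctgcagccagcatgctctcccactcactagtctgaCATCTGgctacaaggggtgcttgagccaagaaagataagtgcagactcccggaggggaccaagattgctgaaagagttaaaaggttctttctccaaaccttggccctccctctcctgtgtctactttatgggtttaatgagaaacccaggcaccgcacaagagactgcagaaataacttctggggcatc
Chad: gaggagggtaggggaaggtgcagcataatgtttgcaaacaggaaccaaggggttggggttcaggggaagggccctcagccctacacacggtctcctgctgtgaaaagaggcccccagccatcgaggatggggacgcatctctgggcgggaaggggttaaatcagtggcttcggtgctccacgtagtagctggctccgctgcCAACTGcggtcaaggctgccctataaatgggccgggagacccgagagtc
Cilp: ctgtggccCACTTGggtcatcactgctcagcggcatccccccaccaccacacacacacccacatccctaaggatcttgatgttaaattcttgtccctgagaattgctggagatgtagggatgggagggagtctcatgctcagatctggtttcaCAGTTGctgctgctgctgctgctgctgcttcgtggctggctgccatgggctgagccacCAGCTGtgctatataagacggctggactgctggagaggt
Matn1: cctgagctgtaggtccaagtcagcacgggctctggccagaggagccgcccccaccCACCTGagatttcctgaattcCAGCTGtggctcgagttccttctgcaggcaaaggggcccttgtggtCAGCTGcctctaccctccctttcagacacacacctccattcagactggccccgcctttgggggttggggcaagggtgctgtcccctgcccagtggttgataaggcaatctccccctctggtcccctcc
CANNTG reads the same on both strands, and 66.2% of 32851 such windows held at least 1 match. Fmod and Chad had 1 match each, Cilp and Matn1 had 3 each, and the window of Tnmd had 0. AACAAT, searched with its reverse complement ATTGTT as the core that Sox proteins bind, occurs in 9.42% of the windows and in 0 of the 5. A match is a description of the letters in the window, not a site of binding.

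Each library held between 5221655 and 9592875 counts, of which Lars2, Gm23935 and Gm15564 took 3.64% to 40.0%. The genes behind the sort followed the labels. Mean Cspg4 was 689 CPM (counts per 1000000, TMM-normalized) in PSCs, 71.0 CPM in S100β-GFP+ cells and 665 CPM in NG2-dsRed+ cells, and mean S100b was 255, 29.4 and 6.54 CPM. Sox10, a defining gene of Schwann cells, ranged from 379 to 703 CPM in PSCs and from 5.57 to 38.8 CPM in S100β-GFP+ libraries. In the same S100β-GFP+ libraries 7 fibroblast markers summed to between 3052 and 7095 CPM, against 95.8 to 242 CPM in PSCs and 770 to 1287 CPM in NG2-dsRed+ cells. These libraries also held macrophage and leukocyte RNA (5 markers, 276 to 2062 CPM, against at most 11.4 CPM in PSCs and 24.7 CPM in NG2-dsRed+ cells). The S100β-GFP+ group is thus not Schwann cell RNA alone, and the part of these other cells in the levels given next was not tested. In bulk RNA of sorted cells, fewer cells of a type and less RNA per cell cannot be told apart.

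By mean and by median, 6 of the 9 genes were highest in S100β-GFP+ libraries, namely Scx, Mkx, Tnmd, Fmod, Chad and Cilp. For Cilp, as for Prg4 and Sox9, S100β-GFP+ and NG2-dsRed+ levels were within about an SE of each other and PSCs were lower, which is called the second pattern here. Matn1 was near 0 outside a single PSC library. Of 7 genes that passed the filter on low counts, 7 had a fold change below 0 in PSCs against S100β-GFP+ cells. Their median was -3.18 on the log2 scale, beside 0.04 over all 15330 genes tested. The medians were -1.31 beside 0.02 for PSCs against NG2-dsRed+ cells, and 2.20 beside -0.02 for S100β-GFP+ against NG2-dsRed+ cells. Mkx and Matn1 did not pass the filter, and Scx and Chad passed through the 8 S100β-GFP+ libraries, with only 5 and 7 others over the minimum. These medians therefore do not stand for all 9 genes and are no support for a direction. For none of the 7 did all PSC libraries lie above all libraries of S100β-GFP+ (5.24% of all genes tested) or NG2-dsRed+ cells (5.08%), or all S100β-GFP+ below all NG2-dsRed+ libraries (4.38%).

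**Figure D1:**
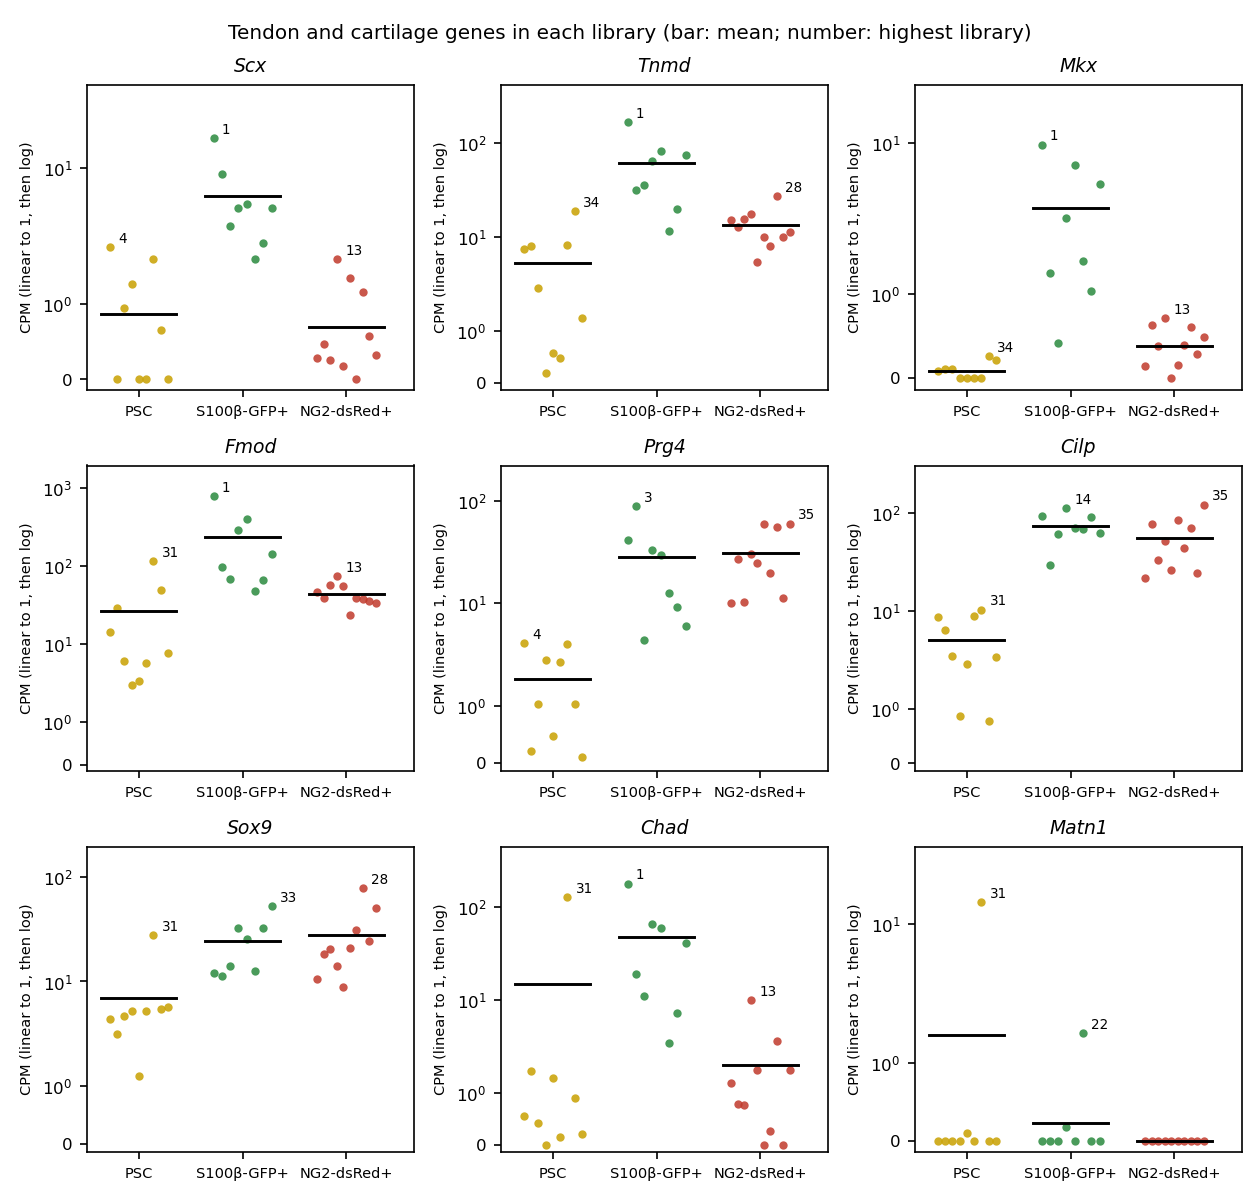
Level of each gene in every library, in CPM on an axis that is linear to 1 and logarithmic above, with 1 point per library (9 PSC, 8 S100β-GFP+, 10 NG2-dsRed+), a bar at the mean and the number of the highest library. Prg4 and Cilp are below every other library in all PSC libraries, while Chad and Matn1 in PSCs come almost wholly from library 31.

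Scx, the earliest marker of tendon progenitors, was low throughout. Its level ran from 2.14 CPM over a median of 5.11 to 16.5 CPM in the 8 S100β-GFP+ libraries, from 0 over 0.398 to 2.14 CPM in the 10 NG2-dsRed+ libraries, and from 0 over 0.648 to 2.60 CPM in the 9 PSC libraries. The lowest S100β-GFP+ library (22, 2.139 CPM) was barely above the highest NG2-dsRed+ library (13, 2.136 CPM), so the ranges did not overlap, as for 7.21% of all genes tested in this direction. Of PSC libraries, 7 were below every S100β-GFP+ library, and 4 had 0 counts. The log2 fold change was -2.84 (SE 0.74) for PSCs against S100β-GFP+ cells, 3.16 (SE 0.74) for S100β-GFP+ against NG2-dsRed+ cells, and 0.32 (SE 0.73) for PSCs against NG2-dsRed+ cells. PSCs and NG2-dsRed+ cells thus did not differ beyond the spread, and the sign turned without PSC library 4 (-0.09, SE 0.75). All PSC libraries together held 70 Scx counts, 33 of them in library 4.

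Mkx, the other tendon transcription factor, was counted mainly in S100β-GFP+ cells. It lies on chromosome 18 at 6934518 to 7004780 (GRCm38), and its exons overlap a transcript on the same strand, AC148004.2, that the table does not list. Levels ran from 0.415 over a median of 2.41 to 9.72 CPM in S100β-GFP+ cells, from 0 to 0.712 CPM (median 0.385) in NG2-dsRed+ cells and from 0 to 0.259 CPM (median 0.0789) in PSCs. Every PSC library was below every S100β-GFP+ library, as for 10.3% of all genes tested. The 9 PSC libraries held 7 Mkx counts in all and the NG2-dsRed+ libraries 25, and 7 of the 10 NG2-dsRed+ libraries were above every PSC library. With no filter on low counts the log2 fold change was -5.12 (SE 0.73) for PSCs against S100β-GFP+ cells, -1.91 (SE 0.71) against the NG2-dsRed+ group and 3.21 (SE 0.63) for S100β-GFP+ against NG2-dsRed+ cells. Libraries 1, 17, 33 and 14 (9.72, 7.09, 5.33 and 3.18 CPM) were the S100β-GFP+ libraries above the minimum of the filter.

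Tnmd, the marker of mature tenocytes, was far more abundant. It ran from 11.5 over a median of 50.3 to 169.9 CPM in S100β-GFP+ libraries, from 5.43 over 12.0 to 27.2 CPM in NG2-dsRed+ libraries and from 0.175 over 2.82 to 18.9 CPM in PSC libraries. The order S100β-GFP+, NG2-dsRed+, PSC held for means and medians, with overlap at the edges. Of S100β-GFP+ libraries 6 were above every NG2-dsRed+ library, and 5 PSC libraries were below every NG2-dsRed+ library. Fitted, the log2 fold change was -3.52 (SE 0.60) for PSCs against S100β-GFP+ cells, -1.31 (SE 0.55) against NG2-dsRed+ cells, and 2.20 (SE 0.55) for S100β-GFP+ against NG2-dsRed+ cells. Library 34 held 39.6% of the summed Tnmd level of PSCs, and the mean of 5.32 CPM was 3.62 CPM without it.

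Fmod encodes a proteoglycan that steers collagen fibril assembly. It ran from 48.2 over a median of 120.3 to 779 CPM in S100β-GFP+ cells, from 23.6 over 39.1 to 74.4 CPM in NG2-dsRed+ cells and from 2.98 over 7.58 to 116.7 CPM in PSCs. The NG2-dsRed+ libraries were close together (SD 14.5 CPM around a mean of 44.0 CPM), whereas the SD was larger than the mean in S100β-GFP+ cells (252 around 235.6 CPM) and in PSCs (37.3 around 26.1 CPM). Library 31 held 49.7% of the summed PSC level. On the log2 scale PSCs differed by -3.18 (SE 0.65) against S100β-GFP+ cells and -0.76 (SE 0.58) against NG2-dsRed+ cells, and without library 31 by -3.99 (SE 0.61) and -1.57 (SE 0.54). S100β-GFP+ against NG2-dsRed+ cells gave 2.42 (SE 0.61).

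Across cell types Prg4, the gene of lubricin, did not follow Scx, Mkx, Tnmd and Fmod. It ran from 4.43 over a median of 20.9 to 88.1 CPM in S100β-GFP+ libraries and from 10.1 over 25.9 to 59.8 CPM in NG2-dsRed+ libraries, and from 0.105 over 1.04 to 4.10 CPM in PSC libraries. Every PSC library was below every library of the other cell types, as for 10.3% of all genes tested in the comparison with S100β-GFP+ and 8.83% in that with NG2-dsRed+ libraries. The margin to S100β-GFP+ cells was narrow (4.10 CPM in PSC library 4, 4.43 CPM in S100β-GFP+ library 11). The log2 fold change for PSCs was -3.96 (SE 0.63) against S100β-GFP+ cells and -4.09 (SE 0.62) against NG2-dsRed+ cells. S100β-GFP+ and NG2-dsRed+ cells differed by -0.13 (SE 0.54), less than the spread. S100β-GFP+ library 3 alone held 39.3% of the summed level of its group.

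Cilp, a matrix protein of cartilage and tendon, varied least over the S100β-GFP+ libraries, with a ratio of highest to lowest library of 3.77. It ran from 29.5 over a median of 69.1 to 111.2 CPM in S100β-GFP+ libraries, from 21.7 over 47.3 to 121.3 CPM in NG2-dsRed+ libraries and from 0.778 over 3.44 to 10.3 CPM in PSC libraries. The PSC range again lay below both others, as for Prg4 and here with a wider gap. The log2 fold change for PSCs was -3.84 (SE 0.43) against S100β-GFP+ cells and -3.44 (SE 0.42) against NG2-dsRed+ cells, with the smallest SE among the 7 genes fitted. S100β-GFP+ cells against NG2-dsRed+ cells gave 0.40 (SE 0.38). Leaving out the highest library of a group moved a Cilp mean by at most 1.15 times.

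Sox9 had the second pattern with a smaller difference. It ran from 11.25 over a median of 19.95 to 53.3 CPM in S100β-GFP+ libraries, from 8.94 over 20.9 to 78.8 CPM in NG2-dsRed+ libraries and from 1.24 over 5.17 to 28.0 CPM in PSC libraries. The 8 PSC libraries other than 31 were at or below 5.68 CPM and so below every library of both other cell types, and library 31, at 28.0 CPM, was in the middle of their ranges. On the log2 scale PSCs differed by -1.80 (SE 0.49) against S100β-GFP+ cells and -2.01 (SE 0.47) against NG2-dsRed+ cells. Without library 31 it was -2.47 (SE 0.43) and -2.68 (SE 0.42). S100β-GFP+ and NG2-dsRed+ cells differed by -0.21 (SE 0.46).

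Of the 7 genes that were fitted, Chad varied most between libraries. In S100β-GFP+ libraries it ran from 3.46 over a median of 30.0 to 178 CPM, in NG2-dsRed+ libraries from 0 over 1.03 to 9.97 CPM. In PSCs 8 libraries were between 0 and 1.71 CPM and library 31 was at 126.6 CPM. That library held 885 of the 938 Chad counts of PSCs and 95.9% of their summed level, and the mean of 14.7 CPM was 0.674 CPM without it. By mean PSCs stood above NG2-dsRed+ cells (2.02 CPM), and by median (0.552 CPM) below them. The log2 fold change for PSCs against NG2-dsRed+ cells was accordingly 2.88 (SE 1.12) with library 31 and -1.45 (SE 0.83) without it, and against S100β-GFP+ cells -1.72 (SE 1.07) and -6.05 (SE 0.90). S100β-GFP+ cells against NG2-dsRed+ cells gave 4.60 (SE 1.18) and kept that sign without any library, between 3.88 and 5.40.

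Matn1 was a gene of a single PSC library. Library 31 held 100 counts (14.3 CPM) and the other 8 PSC libraries 1 count in all. Of 11 counts in S100β-GFP+ cells 10 were in library 22 (1.65 CPM) and 1 was in library 14. The 10 NG2-dsRed+ libraries held 0 counts, which allows a level of up to 0.0440 CPM (3 counts over the group, counting error only). The PSC mean of 1.60 CPM was 0.0120 CPM without library 31, so no level of PSCs in general can be given from it.

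**Figure D2:**
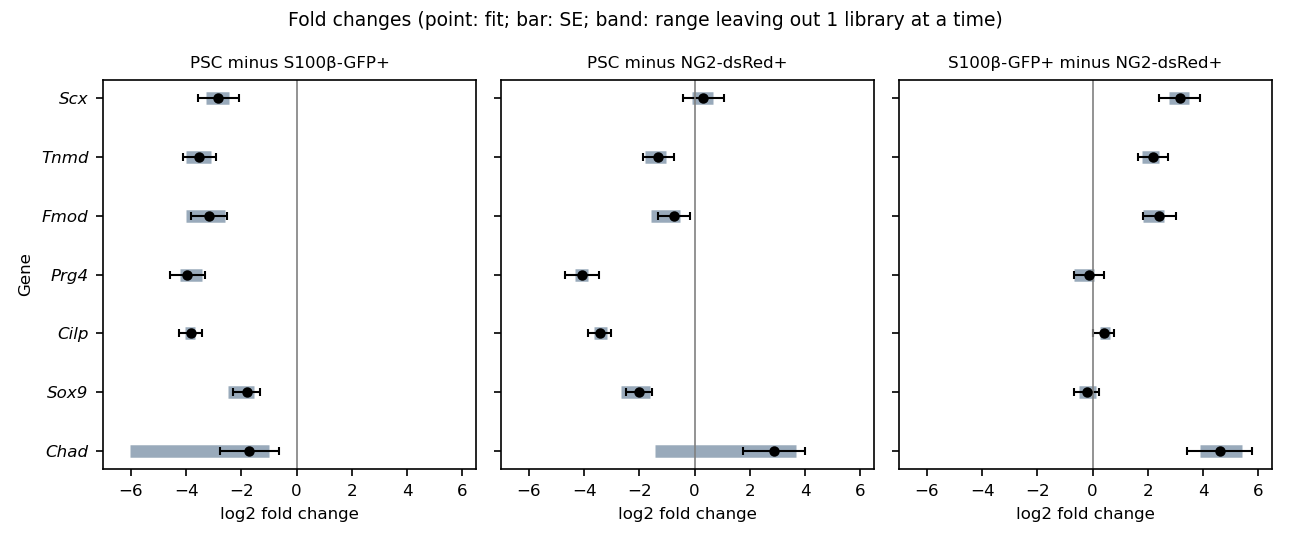
Log2 fold change of the 7 genes that passed the filter in each comparison (points, with SE as error bars) and its range when each library was left out in turn (bands). Chad spans -6.05 to -1.01 and -1.45 to 3.67 in the comparisons with PSCs, the latter across 0, while the bands of Prg4 and Cilp in those comparisons stay narrow.

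Compared per 1000 exon bases, the order of the 9 genes depended on the cell type and on mean or median. In S100β-GFP+ cells the mean level per 1000 bases was highest for Fmod (71.3 CPM), Tnmd (45.3 CPM) and Chad (28.6 CPM), followed by Cilp (17.2 CPM). By median Tnmd (37.2 CPM) and Fmod (36.4 CPM) were almost equal there. In NG2-dsRed+ cells Fmod (13.3 CPM) and Cilp (13.0 CPM) led and did not differ beyond their spread, with Tnmd at 9.82 CPM, Prg4 at 7.19 CPM, Sox9 at 6.75 CPM and Chad only at 1.20 CPM. In PSCs Chad was first by mean (8.73 CPM) and far down by median (0.329 CPM). By median Fmod (2.29 CPM) and Tnmd (2.08 CPM) came first there, with Sox9 at 1.25 CPM. The transcription factors Scx and Mkx were the lowest apart from Matn1 in S100β-GFP+ cells, at 3.11 and 0.910 CPM.

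PSC library 31 also stood apart in cartilage genes outside the 9. Of 27 other cartilage genes, 22 were highest in library 31 among PSCs, and 17 were over 4 times the next PSC library. Among the 16 that passed the filter 8 were over 4 times the next, against 63 (0.411%) of all 15330 genes tested. Only PSC library 18 had more such genes (134 over all genes tested), and the other 7 had between 8 and 30. Col2a1, the main collagen of cartilage, was at 3859 CPM in library 31 and at most 14.0 CPM in the other PSC libraries, and at most 41.7 CPM in any of the other 26 libraries. Acan (aggrecan) was at 285 against at most 2.42 CPM in the other PSC libraries, Hapln1 (link protein) at 217 against 5.89 CPM, Col9a1 at 196 against 4.00 CPM, Cnmd (chondromodulin) at 122 against 2.97 CPM and Matn3 at 99.1 against 0.389 CPM. Genes of mature cartilage were among them, with Col10a1 of hypertrophic chondrocytes at 28.9 against 0.626 CPM and Panx3 at 46.3 against 0 CPM.

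The Schwann cell genes of library 31 were within the ranges of the other PSC libraries. Its 7 Schwann cell lineage markers summed to 2622 CPM, toward the low end of the 2565 to 3205 CPM of the other 8 PSC libraries. S100b was also toward the low end, at 67.8 CPM against 57.0 to 566 CPM in the other 8 (median 248 CPM). Sox10 was at 452 CPM in library 31. Scx (2.15 CPM), Tnmd (8.15 CPM) and Mkx (0 counts) were not highest in it, while Fmod, Cilp and, of the tendon list, Comp (258 CPM), Col12a1 (160.3 CPM), Thbs4 (46.5 CPM), Tnc (46.5 CPM), Cilp2 (6.72 CPM) and Six2 (1.29 CPM) were. It was the highest PSC library for perineurial (125 CPM), endothelial (478 CPM against at most 357 CPM), fibroblast (242 against 157 CPM, mostly Cd34 and Ly6a, with Dpt at 4.72 CPM near the lowest), macrophage (11.4 against 11.2 CPM), erythroid (7402 against 5511 CPM) and osteoblast markers (37.5 against 5.44 CPM, of which Alpl 27.6 CPM, Bglap 2.86 CPM and Ibsp 0.143 CPM). The part of these in the cartilage levels was not tested.

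**Figure D3:**
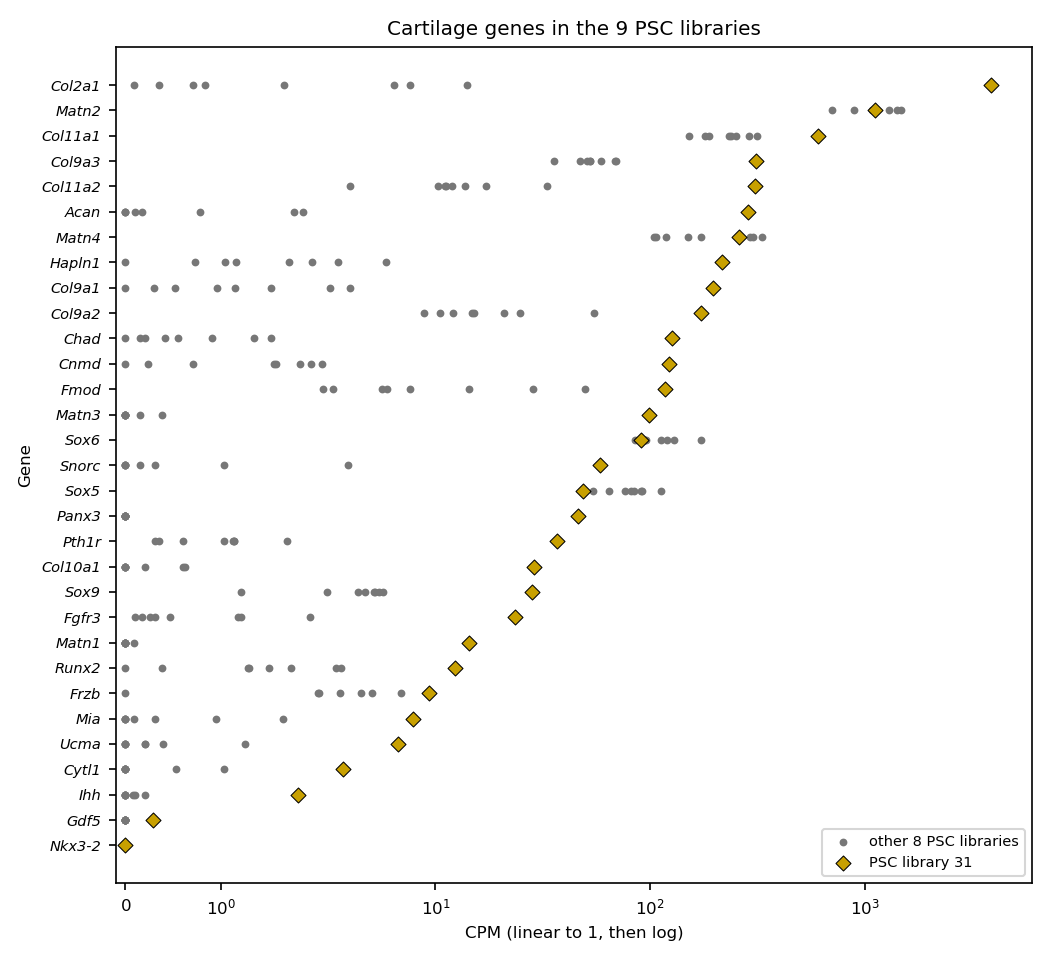
Level of Chad, Matn1, Sox9, Fmod and 27 other cartilage genes in the 9 PSC libraries, in CPM on an axis that is linear to 1 and logarithmic above, with library 31 as diamonds and the other 8 libraries as grey points. Most cartilage genes are far above the grey points in library 31, and Sox5, Sox6, Matn2 and Matn4 lie among them.

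Within S100β-GFP+ cells 5 of the 9 genes had the same highest library. Library 1 was the highest for Scx (16.5 CPM), Tnmd (169.9 CPM), Mkx (9.72 CPM), Fmod (779 CPM) and Chad (178 CPM), between 1.37 and 2.74 times the next library. It was also highest for Thbs4 (606 CPM), Angptl7 (110.2 CPM), Cilp2 (91.1 CPM), Kera (74.2 CPM) and Comp (65.7 CPM), all matrix or secreted proteins of tendon. The second library differed (3 for Scx, 17 for Tnmd, Mkx and Fmod, 14 for Chad), and most genes of the tendon list were highest in other libraries, chiefly 14 and 33. Library 22 was the lowest for Scx, Tnmd, Fmod and Chad, with a ratio of highest to lowest library of 7.73 for Scx, 14.75 for Tnmd, 16.2 for Fmod and 51.6 for Chad. The genes of the second pattern had other leading libraries, 3 for Prg4, 14 for Cilp and 33 for Sox9. Without library 1 the log2 fold changes of PSCs against S100β-GFP+ cells were -2.46 for Scx (SE 0.76), -3.10 for Tnmd (SE 0.58) and -2.60 for Fmod (SE 0.61). They kept their direction, and so did that of Chad, at -1.01 (SE 1.09) for PSCs against S100β-GFP+ cells.

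Libraries 14, 17 and 22 stood apart from the other 5 S100β-GFP+ libraries by high endothelial markers (690 to 2095 CPM, against at most 175 CPM). They also had low macrophage markers (276 to 543 CPM, against at least 1318 CPM). Their ranges overlapped those of the other 5 in each of the 9 genes, for Matn1 only at 0. Mean Tnmd was 52.9 ± 36.9 CPM in them and 66.4 ± 61.5 CPM in the other 5 (SD, n = 3 and 5), mean Fmod 244 ± 179 and 230.5 ± 308 CPM, and mean Cilp 83.1 ± 24.4 and 66.9 ± 25.5 CPM. The SD exceeded the difference in Tnmd, Fmod and Cilp. Mean Scx was 4.23 ± 1.82 and 7.46 ± 5.62 CPM, a difference above the smaller SD and below the larger. Of the 9 genes only Matn1 had all its S100β-GFP+ counts in these 3 libraries.

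Over all 27 libraries the 9 genes were most like the following others, by Pearson's r of log2 CPM, which is a description since cell type and depth enter into it. Fmod (r = 0.91), Chad (0.90) and Tnmd (0.88) had the same nearest gene, Cilp2, a relative of Cilp. Mkx in turn was nearest to Kera (0.87), Cilp to Col6a2 (0.93), Prg4 to Fam20a (0.88), Sox9 to Pcolce (0.86) and Matn1 to Cnmd (0.72). Scx was nearest to Ctsh and Lgals3 (0.83 each), which are known from macrophages among other cells. Macrophage markers were likewise highest in S100β-GFP+ libraries, and their part in this likeness was not tested. After each cell type's mean was subtracted, Tnmd was nearest to Thbs4 (0.86), Fmod (0.87) and Chad (0.81) to Cilp2, and Sox9 still to Pcolce (0.85). Outside the 9 genes the best value for Scx was 0.63 (Crlf2) and for Prg4 0.57 (Bmp7). Scx and Prg4 were at 0.64 with each other, and at 0.61 without PSC library 31. Among the members themselves Tnmd and Fmod were closest (0.83, and 0.85 in the 26 libraries without PSC library 31), with Fmod and Chad at 0.78 and 0.68. Chad and Matn1 went from 0.51 to -0.32 without that library, and Fmod and Cilp were at 0.18 and 0.02.

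**Figure D4:**
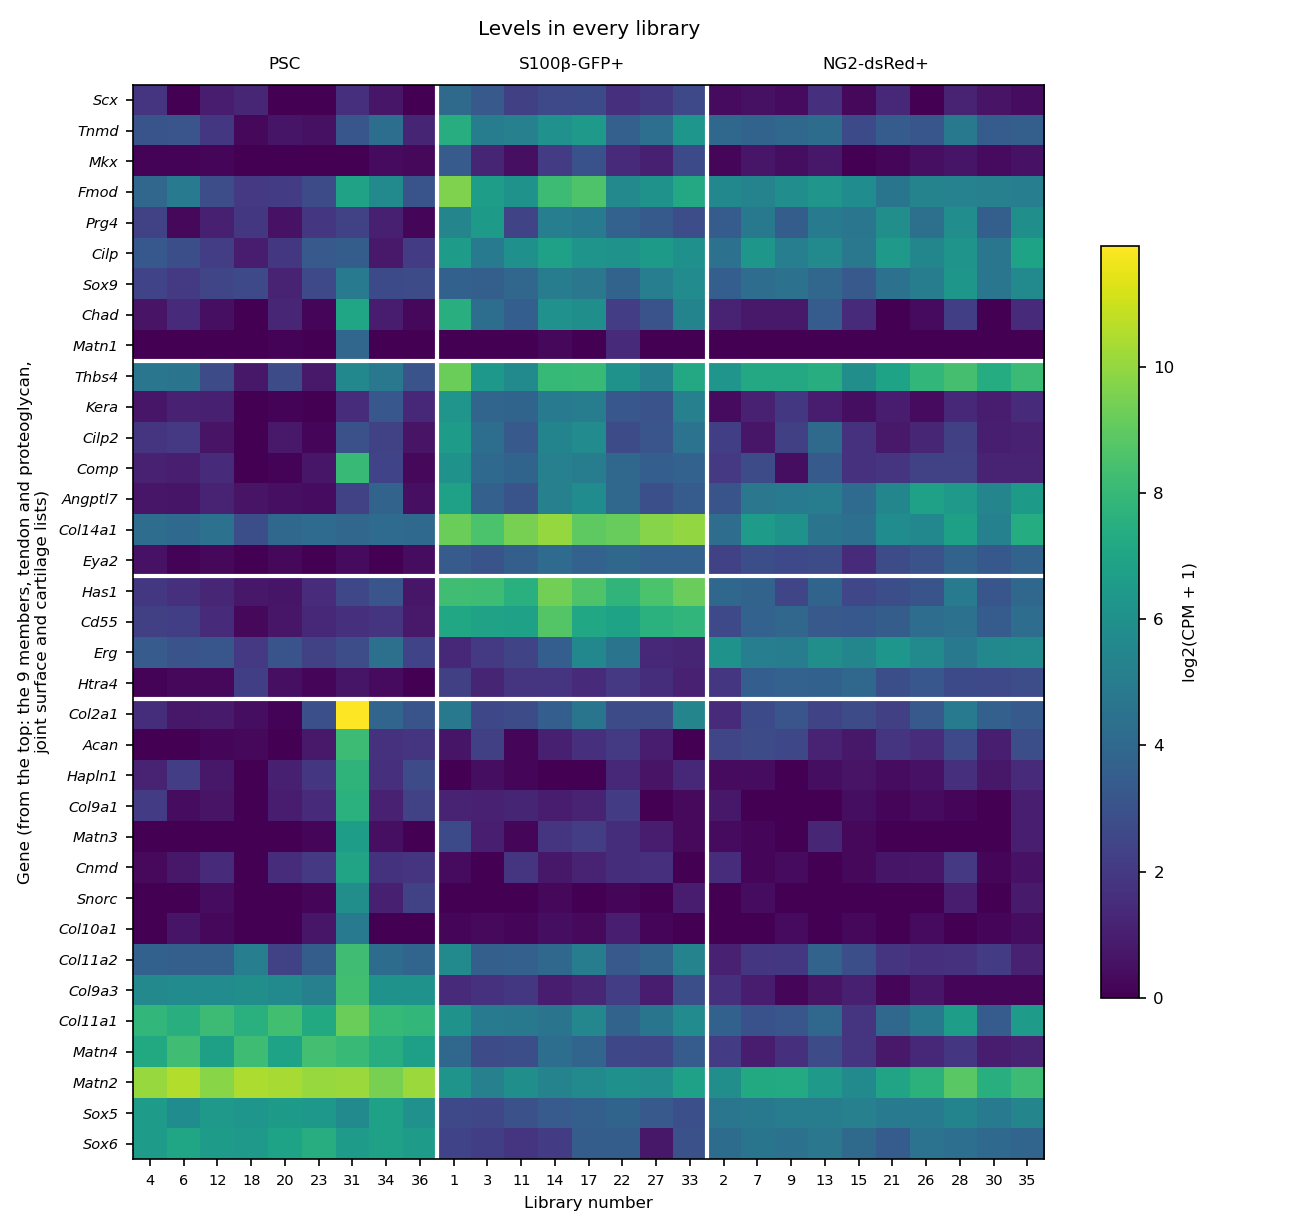
Level, as log2(CPM + 1), of the 9 genes and of 26 other tendon, proteoglycan, joint surface and cartilage genes (rows) in the 27 libraries (columns, by number). S100β-GFP+ library 1 is brightest of its group for Scx, Tnmd, Mkx, Fmod and Chad, PSC library 31 across cartilage genes from Col2a1 to Col11a2, and Matn2, Sox5 and Sox6 are bright in every PSC library.

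To place the 9 genes among others of the same tissues, 76 further genes in lists for tendon, small leucine-rich proteoglycans, cartilage and joint surface were taken from the fit over all genes (edgeR quasi-likelihood test with Benjamini-Hochberg adjustment, threshold 0.05). Of these, 61 passed the filter. The lists too were chosen with earlier results of these data known, so their counts are no independent support for the 9 genes. Of the 24 tendon genes, PSCs had 17 lower and 0 higher against the S100β-GFP+ group, where 24.1% of all genes tested were lower and 22.9% higher, and the list's median log2 fold change was -2.26. Against NG2-dsRed+ cells 17 were lower and 2 higher (23.1% and 20.9% of all genes), and the median was -1.41. In S100β-GFP+ against NG2-dsRed+ cells 13 were higher and 2 lower (18.1% and 15.2% of all genes), with a median of 0.81.

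Eya2, a transcriptional coactivator, and Col14a1 and Col3a1, which encode a fibril-associated and a fibrillar collagen, had the largest differences of the list, all lower in PSCs than in the S100β-GFP+ group. Eya2 was at 0.175 ± 0.166 CPM in PSCs (SD, n = 9), 12.2 ± 2.88 CPM in S100β-GFP+ cells (n = 8) and 7.07 ± 3.63 CPM in NG2-dsRed+ cells (n = 10), with log2 fold changes of -5.86 (adjusted p = 9e-12, edgeR) and -5.07 (adjusted p = 1.04e-10, edgeR). Col14a1 was lower in PSCs by -5.51 on the log2 scale (adjusted p = 4.27e-12, edgeR), and Col3a1 by -4.60 (adjusted p = 3.36e-11, edgeR). Thrombospondin 4, encoded by Thbs4, had the second pattern of the 9 genes, lower in PSCs than in NG2-dsRed+ cells (-3.46, adjusted p = 3.71e-05, edgeR) and with 0.13 (SE 0.57) between the other cell types. Angptl7 had the same pattern (-4.37 against NG2-dsRed+ cells, adjusted p = 1.45e-05, edgeR, and -0.61 with SE 0.64 between the other cell types). Cilp2 was higher in S100β-GFP+ than in NG2-dsRed+ cells by 3.16 (adjusted p = 0.000469, edgeR), like Tnmd and Fmod. For Comp (cartilage oligomeric matrix protein) the adjusted p depended on single libraries. It was higher in PSCs than in NG2-dsRed+ cells (3.12, adjusted p = 0.0162, edgeR) through library 31 at 258 CPM, and lower without it (-1.58, adjusted p = 0.0322, edgeR). For S100β-GFP+ against NG2-dsRed+ cells its adjusted p of 0.036 (2.87, edgeR) was lost when any of 7 libraries was left out, S100β-GFP+ library 1 among them. Without PSC library 31, which is in neither group, it was 0.000129 (edgeR) at the same fold change. Every S100β-GFP+ library (at least 10.8 CPM) was above every NG2-dsRed+ library (at most 9.43 CPM), as for 7.21% of all genes tested.

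The leucine-rich proteoglycans, the family of Fmod, were lower in PSCs in 10 of 12 tested genes against S100β-GFP+ cells (24.1% of all genes tested) and in 8 against NG2-dsRed+ cells (23.1%), with 1 higher in each (22.9% and 20.9% of all genes), the latter 2 under 13 other settings. Aspn (asporin) was at 16.8 ± 8.30 CPM in PSCs, 379 ± 127 CPM in S100β-GFP+ cells and 504 ± 68.9 CPM in NG2-dsRed+ cells, with log2 fold changes of -4.50 and -4.91 (adjusted p = 8.35e-14 and 9.75e-15, edgeR). Podn (podocan) was lower in PSCs by -4.27 and -3.64. Kera (keratocan) was highest in S100β-GFP+ cells, like Fmod and Tnmd, with a mean of 26.7 CPM there, 1.65 CPM in PSCs and 1.08 CPM in the NG2-dsRed+ group. Unlike those genes it was not lower in PSCs than in NG2-dsRed+ cells (0.60, SE 0.66). Kera was higher in S100β-GFP+ than in NG2-dsRed+ cells by 4.60 (adjusted p = 2.95e-06, edgeR), as were Omd (2.19) and Ogn (2.10). The gene that was higher in PSCs was Chadl, the relative of Chad. It was at 52.1 ± 17.4 CPM in PSCs, with no library under 32.4 CPM, against 6.11 ± 1.48 CPM in S100β-GFP+ and 2.43 ± 1.14 CPM in NG2-dsRed+ cells (3.09 and 4.42, adjusted p = 8.78e-11 and 4.54e-14, edgeR). Chadl is thus opposite to Chad in PSCs without library 31.

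Cartilage genes went the other way, in part through library 31. Of the 16 tested, PSCs had 11 higher and 1 lower against S100β-GFP+ cells and 13 higher and 2 lower against the NG2-dsRed+ group, with medians of 3.96 and 3.24. Of all genes tested 22.9% were higher and 24.1% lower in the first comparison, and 20.9% and 23.1% in the second. Without library 31, of 15 tested, 7 were higher and 3 lower in the first comparison and 8 higher and 3 lower in the second, with medians of 0.69 and 1.35. Col2a1 turned from 4.79 (adjusted p = 0.0092, edgeR) to -1.97 (adjusted p = 0.0193, edgeR) against S100β-GFP+ cells and from 5.63 (adjusted p = 0.00163, edgeR) to -1.13 (adjusted p = 0.164, edgeR) against NG2-dsRed+ cells. Hapln1 was at 5.68 and 5.21 with library 31 and did not pass the filter without it. Acan turned from 4.43 to -1.05 and from 3.23 to -2.26. Pth1r, the receptor of parathyroid hormone, and Fgfr3 were lower in PSCs by -4.26 and -2.23 against S100β-GFP+ cells without library 31, and by -1.94 and -0.26 with it.

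Several genes of the list were high in every PSC library, and some of them are known from glia and other cells as well as from cartilage. Sox5 and Sox6 encode partners of Sox9 in cartilage and are also used in neural crest and glial lineages. In PSCs Sox5 was at 48.6 to 111.8 CPM and Sox6 at 84.98 to 173 CPM. Neither exceeded 41.4 CPM in any other library. Matn2 (matrilin-2) ran from 705 to 1473 CPM in PSCs against at most 470 CPM elsewhere. Col11a1 ran from 151 to 603 CPM in PSCs, highest in library 31, against at most 98.1 CPM elsewhere. Col9a2 ran from 8.87 to 173 CPM in PSCs, also highest in library 31, against at most 7.76 CPM elsewhere. Matn4 was higher in PSCs by 6.54 and Col9a3 by 7.06 against NG2-dsRed+ cells (adjusted p = 9.43e-14 and 8.1e-12, edgeR), and Col9a3 by 6.46 without library 31. Sox9 itself was at most 5.68 CPM in the 8 PSC libraries other than 31. Matn1 was at 0 counts in 7 of 9 PSC libraries while Matn2 and Matn4 were abundant in all of them.

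**Figure D5:**
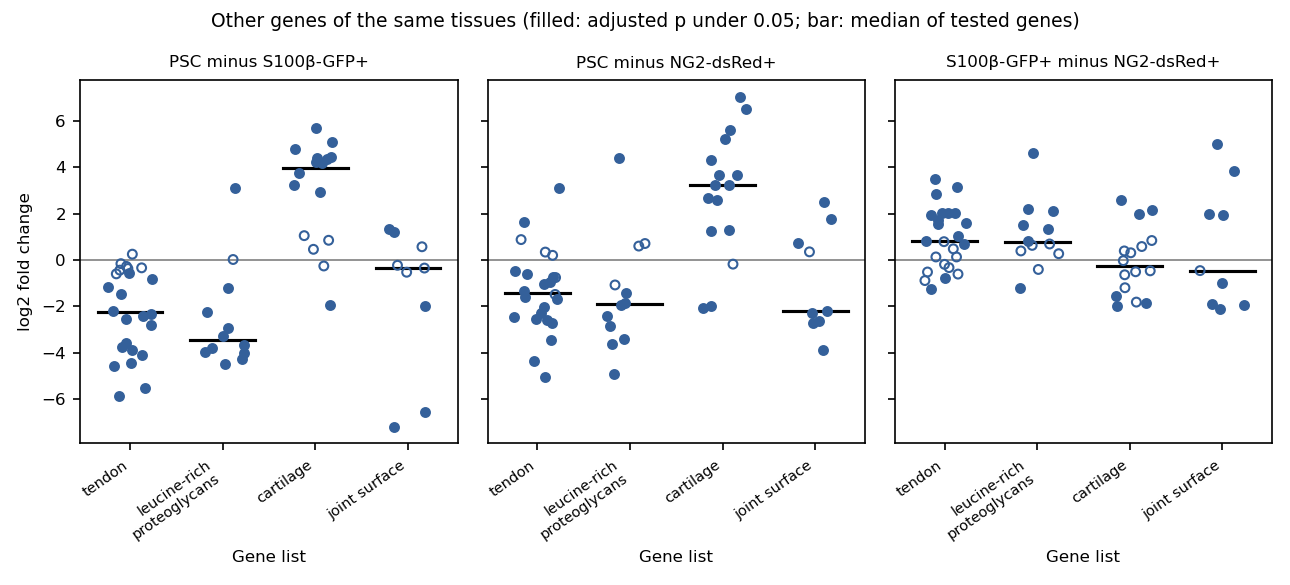
Log2 fold change of the tested genes of the 4 lists in the 3 comparisons, each point a gene, filled where the adjusted p was under 0.05, with the median as a bar. Tendon and proteoglycan genes lie mostly below 0 in both comparisons of PSCs, with medians of -2.26 and -3.46 against S100β-GFP+ cells, and cartilage genes mostly above, with PSC library 31 included.

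The joint surface list, which goes with Prg4, was mixed. Of its 9 genes, PSCs had 2 higher and 3 lower against S100β-GFP+ cells (median -0.35) and 3 higher and 5 lower against the NG2-dsRed+ group (median -2.21). The first counts are near the 22.9% and 24.1% of all genes tested, and the higher one ran from 1 to 4 over other settings. For the second, 20.9% of all genes were higher and 23.1% lower. Between S100β-GFP+ and NG2-dsRed+ libraries 4 were higher and 4 lower in the former (median -0.46), where 18.1% of all genes tested were higher and 15.2% lower. Has1, a hyaluronan synthase, was at 379 ± 167 CPM in S100β-GFP+ cells, 11.8 ± 7.65 CPM in NG2-dsRed+ cells and 2.55 ± 2.41 CPM in PSCs, lower in PSCs than in S100β-GFP+ cells by -7.21 (adjusted p = 2.72e-12, edgeR). Cd55, a complement regulator on lining cells of joints and on fibroblasts, was lower in PSCs by -6.58 and -2.73 (adjusted p = 2.83e-13 and 4.23e-07, edgeR). Htra4 and Erg were highest in NG2-dsRed+ cells, at 8.42 ± 3.98 and 48.7 ± 16.0 CPM. Erg is also an endothelial gene, and 5 endothelial markers summed to between 1172 and 2730 CPM in NG2-dsRed+ libraries, against at most 478 CPM in PSCs. In S100β-GFP+ libraries they summed to between 121 and 2095 CPM. The part of endothelial cells in the level of Erg was not tested. Prg4, at like levels in both groups other than PSCs, resembled neither Has1 nor Erg.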

How the data were processed

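RNA of sorted cells was amplified with a SMART-Seq v4 kit. The authors trimmed reads, aligned them with HISAT2 to GRCm38, per the labels, and counted them per gene with HTSeq. The deposited table holds raw counts, versions and strand use are not stated in these sources, and 99.72% of its identifiers were in GENCODE M21. Columns were matched to samples by library number. All 109 pairs of libraries of 1 cell type differed beyond counting error (the smallest chi-square over its degrees of freedom was 8.10). No molecular identifiers were used, so limits cover counting error only.

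CPM used TMM normalization in edgeR 4.0.16 (R 4.3.3). All 27 libraries were fitted together with the quasi-likelihood test after filterByExpr (minimum count 10, 15330 genes), which was tested on simulated data. The 9 genes and all lists were chosen with earlier results of these data known. Named from each list and comparison were up to 3 called genes of the largest fold change and the 3 genes most like each member (mean of at least 1 CPM). Others (Chadl against S100β-GFP+ cells, Sox5, Sox6, Matn2, Acan, Pth1r, Fgfr3, Comp against NG2-dsRed+ cells, and the cartilage genes of library 31) were named after their values were seen. So were Col11a1 and Col9a2. Log2 levels used a prior count of 2. Alternatives were DESeq2 1.42.0 (Wald test and size factors), limma-voom 3.58.1 with quality weights, no filter, only the cell types compared, a term for how much of a library fell on Lars2, Gm23935 and Gm15564, a prior count of 2 in fold changes, and leaving out each library, libraries 14, 17 and 22, or each group's highest library. Marker lists of 10 cell types were summed per library. Leaving out PSC library 31 with S100β-GFP+ library 1 was added after seeing the data.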

Additional observations from a re-analysis of the deposited data

Results flagged for a closer look

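For each of the 9 genes the libraries of 1 cell type were searched for a single value far from the rest by Dixon's ratio of gap to range. Of 26 sets of libraries with a count, 10 held a library over the 95% limit of that ratio. The limit is made for normally distributed values. CPM here were skewed, and those of Matn1 mostly 0, so no chance rate can be set beside the 10. The genes were chosen with these levels known, so the count is a description and no test. PSC library 31 was far above the other PSC libraries for Chad (126.6 CPM), Fmod (116.7 CPM), Sox9 (28.0 CPM) and Matn1 (14.3 CPM). PSC library 34 was far above for Tnmd (18.9 CPM). In S100β-GFP+ cells library 1 stood out for Tnmd (169.9 CPM) and Chad (178.4 CPM), library 3 for Prg4 (88.1 CPM) and library 22 for Matn1 (1.65 CPM). In NG2-dsRed+ cells library 13 stood out for Chad (9.97 CPM), and it was also the highest of its group for Scx, Mkx and Fmod. Cilp had no such library in any cell type.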

How the results depend on the processing

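The numbers of called genes over all 4 lists stayed within 1.5 times under all alternatives and without any library, but counts of single lists moved by more in 17 cases under other settings and 15 without a library. Of these, tendon genes higher in PSCs than in the NG2-dsRed+ group ran from 1 to 4 (2 in the report), proteoglycans from 1 to 2, and cartilage genes from 8 to 18 (13). Without PSC library 31 they were 10 higher and 34 lower in PSCs against S100β-GFP+ cells (14 and 31 with it) and 13 and 33 against NG2-dsRed+ cells (19 and 32). Of the fold changes of the 7 genes fitted, 184 under other settings and 565 without a library stayed within the spread, and those that did not were of Chad. Against S100β-GFP+ cells it was -4.63 with limma-voom, and -5.35 without PSC library 31 and S100β-GFP+ library 1 together, and against NG2-dsRed+ cells it turned to -1.45 without library 31 and -1.47 without both. Col2a1 also turned, to -1.97 without PSC library 31, -1.81 without both, -1.87 with DESeq2 and -1.75 with limma-voom against S100β-GFP+ cells, and to -1.13, -1.14, -0.98 and -1.15 against NG2-dsRed+ cells. The cause of the turns under DESeq2 and limma-voom was not tested. Leaving out each library in turn, Chad ranged from -6.05 to -1.01 against S100β-GFP+ cells and from -1.45 to 3.67 against NG2-dsRed+ cells, and Col2a1 from -1.97 to 5.17 and from -1.13 to 6.09. When the fit held PSCs and NG2-dsRed+ cells only, Chad and Scx did not pass the filter. The labels do not name the animal of a library, so libraries could not be paired. The study used a single mouse per replicate and collected cells of each group, so libraries of different cell types may share an animal. The fit took all libraries as independent. Genes under about 1 CPM, such as Scx and Mkx in PSCs, rest on a few counts per library, and for Scx no difference between PSCs and NG2-dsRed+ cells was detectable at this depth.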
